A study of Trichoderma reesei with 12 samples.

Results

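The comparison described here sets mycelium of Trichoderma reesei that lacks sor4, a transporter gene, against its parent, both kept in darkness. The sor4 strain has the genotype QM6aΔku80Δsor4 and is represented by 4 dark libraries. The ku80 strain, QM6aΔku80, is labelled as wild type although it too lacks ku80, and is represented by 2 dark libraries. Samples were chosen by their titles, 6 of the 12 in the series; the other 6 come from the same strains kept in light. The treatment protocol given with the light libraries also speaks of darkness; their titles and treatment labels were followed. All cultures grew for 96 h at 28 °C on cellulose in a minimal medium, and RNA was sequenced in bulk after removal of ribosomal RNA. How many independent sor4 transformants were used is not given in the sources used here, nor whether replicates were separate cultures. P-values therefore rest on library-to-library scatter that could be technical. In what follows, a culture means the source of 1 library, whether or not it was grown separately. The labels name mycelium, and no gene names were at hand with which to check that. The only rows named in the table, mat1-1-1, mat1-1-2 and mat1-1-3, had 0 counts in every library; QM6a is known to carry the other mating type.

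T. reesei makes sorbicillinoids, yellow polyketides assembled by a pair of polyketide synthases and modified by an oxidising enzyme. The genes for these proteins lie together with genes for transcription factors and for transporters in the SOR cluster. Such clusters of fungal secondary metabolism are typically read out together and switched by pathway regulators, carbon source and light. Transporters of the major facilitator type can move a product, a precursor or a signal across a membrane, which is why the loss of one may be looked for in the RNA of its neighbours and of the rest of the genome. The gene ku80 serves non-homologous end joining, and its removal makes targeted deletions easier in fungi. The table gives identifiers only, made of Tr, a letter, a number and W or C, and 0 of them matched the reference table, so genes are described by identifier, length and place in the table.

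The dark libraries held 8908266 to 12027855 counts in sor4 and 10104744 and 11337250 counts in ku80. Between 9711 and 9833 rows had a count in sor4 dark libraries, and 9667 and 9771 in ku80 dark libraries. The 20 most abundant rows took 10.2% to 11.1% of the counts in sor4 and 11.2% and 11.8% in ku80. Levels are given as CPM, counts scaled to a common library total after TMM factors that even out libraries of different composition. Sor4 dark replicate 1 stands apart from the other cultures of its strain, as described further on. Some results that rest on it are also given without it, and others only with it.

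Loss of sor4 in darkness left most of the transcriptome close to that of the parent. Of 8939 genes tested, 6242 (69.8%) had a log2 fold change, sor4 over ku80, between -0.25 and 0.25. The median was 0.01, and the 5th and 95th percentiles were -0.45 and 0.75. By edgeR's quasi-likelihood test 3 genes (0.0336% of those tested) had an adjusted p under 0.05, and all 3 fell in sor4. A further look at the unadjusted p found 693 genes (7.75%) under 0.05, of which 391 were lower and 302 higher in sor4. DESeq2 called 78 genes (0.873%), of which 63 (0.705%) were lower and 15 (0.168%) higher. The edgeR count depended on single libraries. Leaving out ku80 dark replicate 1 gave 22 genes, and leaving out ku80 dark replicate 2 gave 1. Leaving out sor4 dark replicate 1 gave 8, and leaving out sor4 dark replicate 2 gave 6. It was also 1 with only the 6 dark libraries in the fit. In bulk RNA, fewer cells of a kind and less RNA per cell cannot be told apart.

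Scarce transcripts held many of the large fold changes. A log2 fold change beyond 1 was seen upward in 273 genes and downward in 95. Of these, 114 and 34 belonged to the 493 genes with a mean under 1 CPM in darkness, where the median standard error was 0.84. A further 77 and 24 belonged to the 1065 genes at 1 to 5 CPM. Among the 2296 genes over 100 CPM, 17 were more than 2-fold higher in sor4 and 8 more than 2-fold lower, with a median standard error of 0.11.

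**Figure D1:**
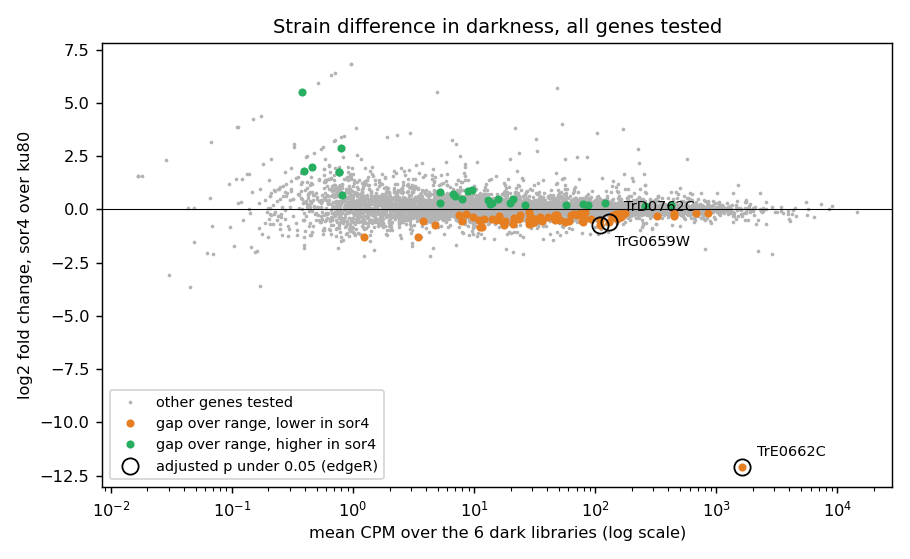
Log2 fold change of sor4 over ku80 in darkness (vertical axis) against the mean CPM over the 6 dark libraries (horizontal axis, log scale), 1 point per gene tested. Black circles mark the 3 genes with an adjusted p under 0.05; coloured points are the 71 genes lower and 27 higher in sor4 whose gap between strains exceeded the range within either strain. TrE0662C lies far below every other gene.

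The transcript that all but vanished was TrE0662C. It is the candidate for the deleted gene, picked by its own counts in these libraries, since the table names no sor4; its level is therefore no separate check of the labels. It stood at 0.108, 0.572, 0.101 and 3.34 CPM in sor4 dark replicates 1 to 4, against 4012 and 5792 CPM in the ku80 dark libraries. Every sor4 library was far below both ku80 libraries. In counts these were 1, 5, 1 and 39 in sor4, against 38841 and 64425 in ku80. The pooled ku80 level was 4278 times that of sor4 (95% interval 3207 to 5843, for counting error only). EdgeR gave -12.08 on the log2 scale (SE 0.78, adjusted p = 0.00173), a value that depends on the prior count for genes so near 0. Sor4 dark replicate 4 gave 39 of the 46 sor4 counts, and -14.18 was obtained without it. In light, TrE0662C had 0 counts in each sor4 library, against 7.49 and 8.75 CPM in ku80. The gene is 1605 bases long in the table. Per kilobase of length it averaged 0.641 CPM in sor4, against 3054 CPM in ku80, which in ku80 put it above every tested row within 10 places of it, of which TrE0671C came next with 1510 CPM per kilobase. The call held in all 15 alternatives, with adjusted p between 6.23e-13 and 0.0454.

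Next to it in the table, 6 rows were on average lower in sor4, and to very different degrees in the 4 cultures. Those are the 3 rows before TrE0662C and the 3 rows after it. Their log2 fold changes ran from -2.10 to -0.69 with a median of -1.46, against a median of 0.01 over all genes. This span of 3 rows was set with earlier results of these data known, so its shares are a description only. Over all 13 tested rows within 10 places the median was -0.69. Of those 13, 4 had an unadjusted p under 0.05 (edgeR) and 7 were lower in sor4 without overlap. None of the 6 had an adjusted p under 0.05 (0.0336% of all genes did), 3 of 6 had an unadjusted p under 0.05 (7.75% of all genes), and 4 of 6 had all sor4 libraries below both ku80 libraries (8.32% of all genes). With TrE0662C the 7 rows gave 0.0315%, 0.158%, 0.579% and 0.509% of all counts in sor4 dark replicates 1 to 4, against 1.51% and 1.79% in the ku80 dark libraries. Without TrE0662C the rounded sor4 shares were unchanged, and those of the ku80 dark libraries were 1.12% and 1.22%.

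TrE0659C and TrE0660W, with 7668 and 7902 bases the longest rows in this stretch, followed each other closely from library to library. TrE0659C had 91.4, 505, 2080 and 1853 CPM in sor4 replicates 1 to 4 and 4368 and 4407 CPM in ku80. TrE0660W had 64.7, 483, 2584 and 2365 CPM in sor4, against 5586 and 6168 CPM in ku80. Both were over 2-fold below both ku80 libraries in each of the 4 sor4 libraries. The log2 fold changes were -1.95 (SE 0.77, adjusted p = 0.567) and -2.10 (SE 0.88, adjusted p = 0.609, edgeR), since the sor4 cultures spanned more than a factor of 10 among themselves.

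TrE0661W and TrE0664C ranked the sor4 cultures in the same way. TrE0661W, the row just before TrE0662C, had 8.82, 103, 515 and 426 CPM in sor4 against 423 and 429 CPM in ku80, so that 2 of 4 sor4 libraries were at or above the level in one of the ku80 libraries. TrE0664C had 19.0, 159, 504 and 372 CPM in sor4 against 731 and 554 CPM in ku80. Relative to the ku80 mean, these were 2.07%, 24.2%, 121% and 100.1% for TrE0661W and 2.96%, 24.8%, 78.4% and 57.8% for TrE0664C.

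TrE0663W and TrE0665C, after TrE0662C in the table, showed another order. TrE0663W had 114, 306, 240 and 199 CPM in sor4 replicates 1 to 4 and 553 and 777 CPM in ku80, with no overlap, which edgeR put at -1.63 on the log2 scale (SE 0.28, adjusted p = 0.154). It passed without sor4 dark replicate 1 (adjusted p = 0.0214), without sor4 dark replicate 2 (0.0393) and in DESeq2 (0.000102), over a range of 0.000102 to 0.766. TrE0665C had 10.4, 53.8, 33.5 and 21.7 CPM in sor4, against 44.7 and 89.6 CPM in ku80, and the groups overlapped. In these 2 rows sor4 replicate 2 was the highest of its strain, whereas replicate 3 was the highest in the other 4.

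Summed up by culture, the median over the 6 rows was 2.52%, 24.5%, 48.6% and 41.2% of the ku80 level in sor4 replicates 1 to 4. Without sor4 dark replicate 1 the median log2 fold change of the 6 was -1.16, still below 0. Singly they then ran from -1.70 in TrE0660W to -0.30 in TrE0661W. The standard deviation of log2 CPM among the 4 sor4 cultures was 2.70 for TrE0661W, 2.50 for TrE0660W, 2.13 for TrE0664C and 2.10 for TrE0659C, against a median of 0.17 over the 7398 genes with at least 5 CPM in sor4 darkness. These 4 rows held places 10, 12, 21 and 22 of the 7398. Between the ku80 dark libraries the same 4 rows had standard deviations of 0.01 to 0.28.

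Further out, the rows before and after TrE0662C differed. The tested rows 4 to 10 places before it, TrE0652W, TrE0653C and TrE0657C, had log2 fold changes of 0.16, -0.03 and 0.04, and in each the strains overlapped. After it, TrE0668C at -0.15 also overlapped, while TrE0669C, TrE0670C and TrE0671C, 7 to 9 places on, lay lower in all 4 sor4 libraries. TrE0669C had 219, 234, 206 and 244 CPM in sor4, against 292 and 569 CPM in ku80 (log2 fold change -0.93, SE 0.23, adjusted p = 0.256, edgeR). Its sor4 values were close together, and the wide spread was that of ku80. It rested on 1 ku80 library: without ku80 dark replicate 1 it was -1.34 (adjusted p = 0.0354), and without ku80 dark replicate 2 it was -0.37 (adjusted p = 1.00). DESeq2 gave 0.0360. TrE0670C had 602, 564, 396 and 622 CPM in sor4, against 653 and 674 CPM in ku80, and TrE0671C had 1387, 1348, 1056 and 1341 CPM in sor4, against 1516 and 1609 CPM in ku80. Their log2 fold changes were both -0.28, with adjusted p of 0.871 and 0.799 (edgeR). These 3 rows did not follow the order of cultures seen at TrE0659C and TrE0660W. The other 7 of the 20 rows were too scarce to be tested.

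**Figure D2:**
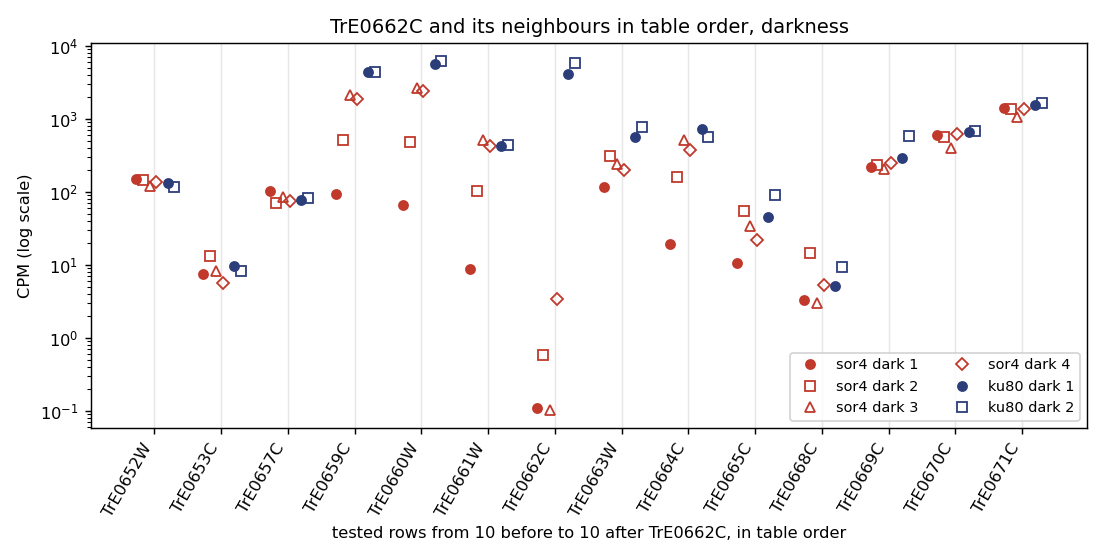
CPM (log scale) of TrE0662C and the 13 tested rows within 10 places of it, in table order, with sor4 dark libraries in red at the left of each gene and ku80 dark libraries in blue at the right; each point is 1 library. Sor4 dark replicate 1 (filled red circle) lies lowest in the 6 rows beside TrE0662C, at 64.7 CPM for TrE0660W against 5586 and 6168 CPM in ku80.

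Of these 6 rows, TrE0663W was the one whose strain difference in light ran without overlap against that in darkness. It stood at 116, 92.7, 105 and 127 CPM in sor4 and at 34.7 and 34.0 CPM in ku80 in light. The strain effect in darkness minus that in light was -3.31 on the log2 scale (SE 0.43, adjusted p = 0.0759, edgeR). TrE0659C had 22.8 to 27.9 CPM in sor4, against 22.5 and 39.6 CPM in ku80 in light, with overlap, and TrE0660W also overlapped. TrE0661W, TrE0664C and TrE0665C had at most 2.56 CPM in any light library. Over all genes, 0 (0%) passed edgeR's test of a difference between the strain effects, with 589 at an unadjusted p under 0.05, 4 called by DESeq2 and 0 by limma-voom.

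Differences without overlap between the strains went down somewhat more often than up over all sizes, and up more often among the larger ones. In 744 genes (8.32%) all 4 sor4 libraries lay below both ku80 libraries, and in 562 (6.29%) all lay above. With a log2 fold change beyond 0.5 there were 185 lower and 214 higher genes, and beyond 1 there were 50 lower and 98 higher. For any single gene, 0.0667 is the smallest p that an exact permutation test can reach with 4 and 2 libraries. It is also the share of genes that libraries in random order would place without overlap in each direction. The shares of 8.32% and 6.29% lie near it, so these counts are not read as strain effects. A stricter rule asked that the gap between the strains exceed the range within either strain, and 71 genes (0.794%) were lower and 27 (0.302%) higher by it. This balance shifted with the scaling. Where only library size was used, 543 were lower and 720 higher without overlap, so that the share of lower genes was 43.0% in place of 57.0%, and by the stricter rule 51 were lower and 48 higher, 51.5% in place of 72.4%. The median log2 fold change of all genes moved only to 0.04 under that scaling.

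Among genes with at least 20 CPM and a log2 fold change under 1 in size, 52 met the stricter rule downward, with a median log2 fold change of -0.39 and a range of -0.72 to -0.13. Upward there were 8, with a median of 0.22. Both counts are for TMM scaling. With library size alone the stricter rule gave 51 lower and 48 higher over all genes tested. Of the 52, 2 had an adjusted p under 0.05; of the 8, none did. In light, whose libraries did not enter the choice, 38 of the 52 (73.1%) were also lower in sor4, with a median log2 fold change of -0.08, while 51.3% of all genes at 20 CPM or more were. Of the 8, 3 were higher in sor4 in light.

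TrD0762C and TrG0659W were the small shifts that passed the test. TrD0762C, 1455 bases long, had 112, 117, 107 and 113 CPM in sor4, against 169.5 and 168 CPM in ku80 in darkness, which is -0.59 on the log2 scale (SE 0.065, adjusted p = 0.00677, edgeR). TrG0659W, 1494 bases long, had 92.3, 91.1, 91.0 and 88.7 CPM in sor4, against 139 and 159 CPM in ku80, which is -0.72 on that scale (SE 0.085, adjusted p = 0.00921, edgeR). With only the 6 dark libraries in the fit the adjusted p were 0.386 for TrD0762C and 0.280 for TrG0659W, and without ku80 dark replicate 2 they were 0.0949 and 0.213; TrG0659W also missed the threshold without sor4 dark replicate 4 (0.0559). Over all alternatives they ran from 5.48e-13 to 0.386 and from 3.66e-10 to 0.280. In light TrD0762C had 165 to 177 CPM in sor4, against 189 and 197 CPM in ku80, and TrG0659W had 142 to 159 CPM in sor4, against 181 and 156 CPM in ku80; the difference of the strain effects had an adjusted p of 0.691 for each.

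The next 4 by p among the 52 lower small shifts did not pass edgeR's test but did in DESeq2. TrG0532C had 29.8 to 33.6 CPM in sor4 against 46.7 and 45.0 CPM in ku80 (log2 fold change -0.56, adjusted p = 0.154, edgeR). TrD1126W had 47.3 to 57.3 CPM in sor4 against 80.7 and 73.4 CPM in ku80 (-0.55, 0.160). TrA1505W had 20.6 to 26.1 CPM in sor4 against 39.3 and 35.5 CPM in ku80 (-0.66, 0.185). TrC0244C had 81.5 to 86.3 CPM in sor4 against 104 and 119 CPM in ku80 (-0.43, 0.185). The sor4 cultures averaged 0.633 to 0.742 times the ku80 mean in these genes; that they lie close together follows from how the genes were chosen.

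Upward shifts of this kind were smaller. TrC0055W, at 21.4 to 26.7 CPM in sor4, against 16.1 and 16.6 CPM in ku80, was the widest, with a log2 fold change of 0.50 (adjusted p = 0.331, edgeR). TrA0540W had 124 to 129 CPM in sor4, against 107 and 101 CPM in ku80 (log2 fold change 0.28, adjusted p = 0.216), and was the only one of the 6 named upward shifts to pass in DESeq2 (0.0139). TrB0392C, TrE0230C, TrA0999C and TrD0926C had log2 fold changes of 0.24, 0.21, 0.21 and 0.15 and adjusted p of 0.432 to 0.601. TrA0999C, the most abundant of them, had 431 to 458 CPM in sor4, against 383 and 374 CPM in ku80.

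**Figure D3:**
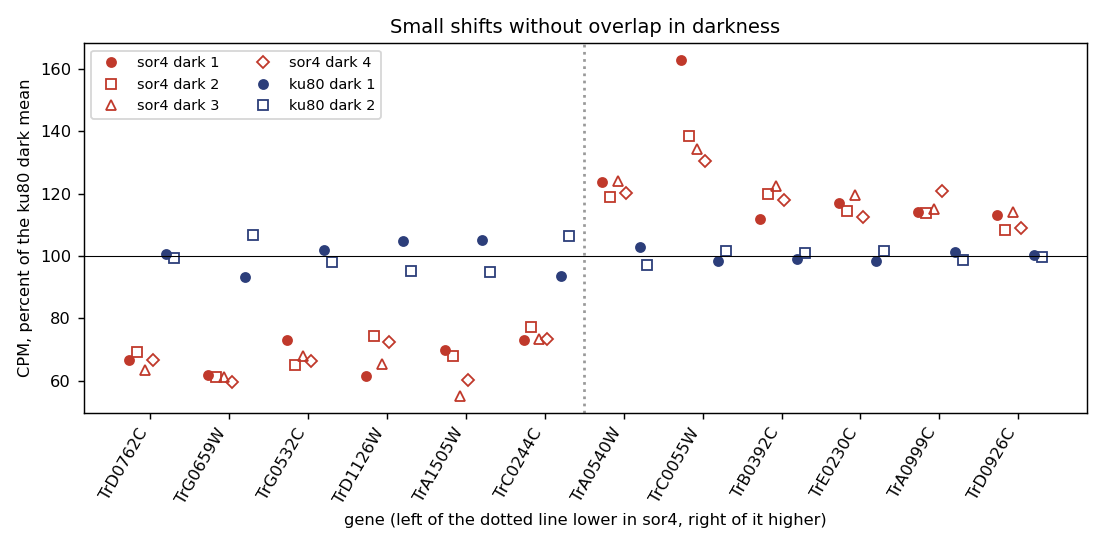
CPM of the 6 lower and 6 higher small shifts in darkness as a percentage of the ku80 dark mean, with sor4 dark libraries in red at the left of each gene and ku80 dark libraries in blue at the right; each point is 1 library and the line marks 100%. In each gene the 4 sor4 libraries lie together on 1 side of both ku80 libraries, with TrG0659W averaging 0.609 and TrC0055W 1.42 times the ku80 mean.

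Larger differences without overlap were carried unevenly by the cultures, and besides TrE0662C none passed edgeR's test. Downward, the largest were TrD0311W, TrA0808W and TrD0153C besides TrE0660W and TrE0659C. TrD0311W had 0.538, 2.75, 3.43 and 1.11 CPM in sor4, against 12.9 and 4.94 CPM in ku80 (log2 fold change -2.19, SE 0.55, adjusted p = 0.259, edgeR). TrA0808W had 4.62, 8.01, 29.5 and 6.07 CPM in sor4, against 62.2 and 42.2 CPM in ku80 (-2.11, SE 1.11, 0.699); in light its ku80 libraries had 2.78 and 356 CPM, so that ku80 itself spanned the whole range. Without sor4 dark replicate 3 TrA0808W was at -3.07. TrD0153C had 14.8, 8.47, 9.99 and 9.15 CPM in sor4, against 23.0 and 61.0 CPM in ku80 (-1.99, SE 0.39, 0.185). TrD0153C was at -2.53 and passed without ku80 dark replicate 1 (0.0289), and was at -1.12 without ku80 dark replicate 2 (0.960). In DESeq2 both TrD0153C (0.00358) and TrD0311W (0.0483) passed. TrD0311W was at -1.34 without ku80 dark replicate 1.

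Upward, TrC0766W was over 2-fold above both ku80 libraries in every sor4 culture, the 1 gene of 7474 with at least 5 CPM in either strain to be so. It had 391, 63.7, 87.1 and 53.3 CPM in sor4, against 14.98 and 9.53 CPM in ku80 (log2 fold change 3.61, SE 0.92, adjusted p = 0.266, edgeR). Sor4 replicate 1 was the highest; leaving it out gave 2.47. TrG0128W had 84.4, 199, 15.8 and 10.3 CPM in sor4, against 6.71 and 2.79 CPM in ku80 (4.04, SE 1.19, 0.404). TrA1824C had 701, 1970, 243 and 224 CPM in sor4, against 120 and 184 CPM in ku80 (2.37, SE 0.79, 0.468). In both genes replicate 2 was the highest and replicates 3 and 4 lay closer to ku80; without replicate 2 the log2 fold changes were 2.96 and 1.36. TrF0388W was also highest in replicate 2, with 9.25, 23.3, 4.04 and 5.22 CPM in sor4, against 2.69 and 0.989 CPM in ku80 (2.51, SE 0.75, 0.404). It passed in DESeq2 (0.0451). It was at 1.75 without sor4 dark replicate 2 and at 3.38 without ku80 dark replicate 1. TrD0022W had 180, 391, 475 and 185 CPM in sor4, against 92.4 and 42.3 CPM in ku80 (2.19, SE 0.68, 0.432). TrF0207C had 1.61, 26.9, 0.505 and 0.342 CPM in sor4, against 0.207 and 0.0899 CPM in ku80, so its log2 fold change of 5.53 (SE 2.13, adjusted p = 0.560) rested on replicate 2; without that library it was 2.37.

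Counting cultures 1 by 1 gave the same picture. Of the 7474 genes, 89, 34, 71 and 49 were over 2-fold below both ku80 libraries in sor4 replicates 1 to 4, and 53, 97, 112 and 36 were over 2-fold above both. Of the genes that were so far below in any culture, 139 were so in 1 culture, 37 in 2, 6 in 3 and 3 in all 4. The 3 were TrE0659C, TrE0660W and TrE0662C. Upward the numbers were 134, 53, 18 and 1.

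With replicate 1 included, the 4 sor4 dark cultures differed among themselves in about as many genes as they differed from ku80. Pairs of sor4 dark libraries had 511 to 1107 genes over 2-fold apart, with a median of 776.5, while pairs of 1 sor4 and 1 ku80 library had 563 to 898, with a median of 770.5. The ku80 dark pair had 620. Without sor4 dark replicate 1, pairs within sor4 had 511 to 737, with a median of 725, and pairs between the strains 563 to 898, with a median of 777. Replicates 3 and 4 were the closest pair, at 511, and replicates 1 and 3 the farthest, at 1107. The common biological coefficient of variation, fitted within each group, was 0.236 for sor4 dark libraries and 0.164 for ku80 dark libraries, against 0.101 for sor4 light libraries and 0.284 for ku80 light libraries. In a principal component analysis of the 6 dark libraries, the leading component held 32.7% of the variance and placed sor4 replicate 1 at -40.1, sor4 replicates 2, 3 and 4 at 0.38, 36.6 and 18.3, and ku80 at -2.23 and -13.0, so it did not divide the strains. The second, with 23.7%, held the sor4 libraries at 4.37, 40.4, -2.09 and -7.04 and the ku80 libraries at -9.05 and -26.6, without overlap. The gap between the strains was narrow there, and sor4 replicate 2 lay farthest out. The third, with 19.2%, also had no overlap, with sor4 replicate 2 at -15.2 and ku80 at -22.3 and -16.0.

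Sor4 dark replicate 1 stood apart by genes that were low. Among the 7398 genes with at least 5 CPM, 192 were over 2-fold below each of the other 3 sor4 cultures in replicate 1, against 13, 31 and 13 in replicates 2 to 4. Over 2-fold above each of the other 3 were 21, 30, 19 and 4 genes in replicates 1 to 4. In the sor4 light libraries the numbers were at most 12 below and 11 above. The 192 genes lay at a median log2 difference of -1.89 from the mean of the other 3 cultures and of -1.02 from the ku80 mean, and 165 of them were below both ku80 libraries. The other 3 cultures lay above ku80 in these genes, by a median of 0.86. The ku80 libraries were also unequal in them: 173 of the 192 (90.1%) were lower in ku80 replicate 2 than in ku80 replicate 1, against 51.6% of the 7398 genes. Of the 31 genes low in sor4 dark replicate 3, 29 (93.5%) were. The other lists of low genes went the other way, with 3 of 13 (23.1%) for sor4 dark replicate 2 and 4 of 13 (30.8%) for replicate 4. Of the 192, 50 (26.0%) were over 4-fold lower in light than in darkness in ku80, against 7.75% of the 7398 (on log2 CPM with a prior count of 0.5). That share was higher in the other lists of low genes, at 38.5%, 67.7% and 53.8% in sor4 dark replicates 2 to 4. What set these libraries apart was not tested, and the labels give no batch.

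**Figure D4:**
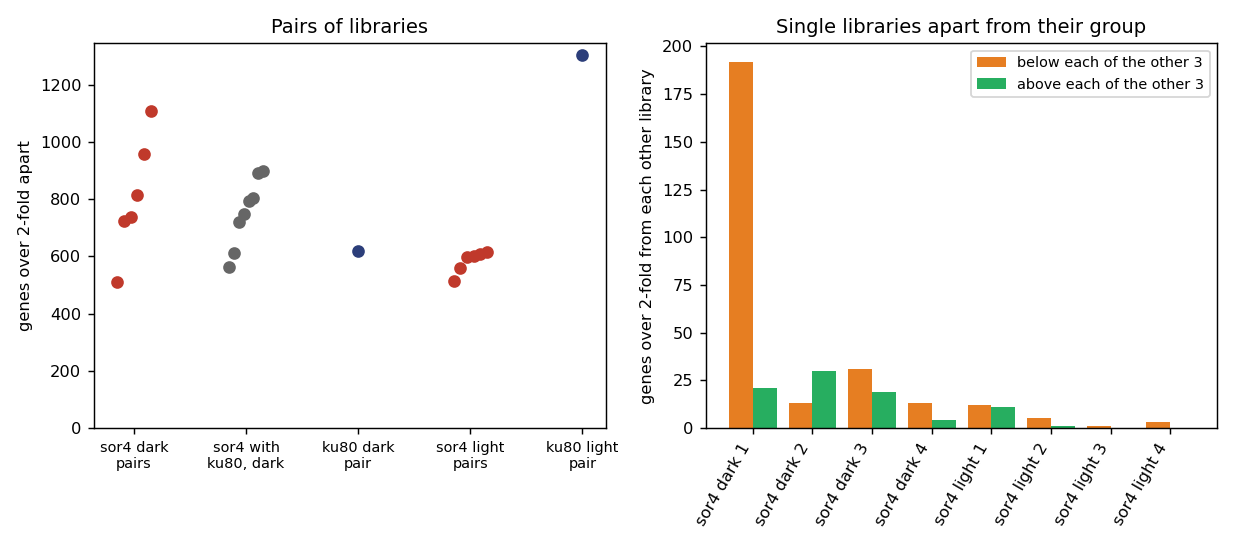
Left, number of genes over 2-fold apart (vertical axis) for pairs of libraries within groups and between the strains in darkness, 1 point per pair. Right, number of genes over 2-fold below (orange) or above (green) each of the other 3 libraries of the group, for the 4 sor4 dark and 4 sor4 light libraries. Sor4 dark replicate 1 has 192 genes below the others; no other library has more than 31.

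In some genes that set single sor4 cultures far apart, replicates 3 and 4 went one way and replicates 1 and 2 the other. TrE0168W, 831 bases long, had 2.26, 16.5, 4594 and 2762 CPM in sor4 replicates 1 to 4 and 697 and 955 CPM in ku80. TrB1854W had 0, 0.572, 208 and 77.3 CPM in sor4, against 1.86 and 0.899 CPM in ku80. TrB0280W had 10.2, 1.60, 150 and 85.6 CPM in sor4, against 13.4 and 24.9 CPM in ku80, and TrE1269C had 2.90, 0, 30.9 and 11.3 CPM in sor4, against 2.27 and 3.42 CPM in ku80. In all 4 genes replicates 3 and 4 were high and replicates 1 and 2 low, with ku80 between them or near the low ones.

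Others ran the opposite way. TrG0126C, 2 rows before TrG0128W in the table, had 328, 632, 5.95 and 9.66 CPM in sor4, against 23.1 and 12.6 CPM in ku80. TrB0313W had 18.8, 15.8, 2.22 and 0.513 CPM in sor4, against 0.826 and 1.08 CPM in ku80, so that replicates 1 and 2 were high. TrE0823C had 84.2, 124, 5.85 and 11.6 CPM in sor4, against 118 and 127 CPM in ku80; here replicates 3 and 4 lay far below ku80 and replicate 1 a little below it. In TrA0038C, at 157, 4.12, 14.3 and 8.38 CPM in sor4, against 3.72 and 5.39 CPM in ku80, replicate 1 alone was high. TrB0737W had 336, 93.6, 27.6 and 13.0 CPM in sor4, against 14.3 and 28.5 CPM in ku80. These 9 genes and TrF0207C were named because 1 sor4 dark library was farthest from the other 3 in them, so their spread is a description and not a test. None differed between the strains by edgeR (adjusted p from 0.512 to 0.924).

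**Figure D5:**
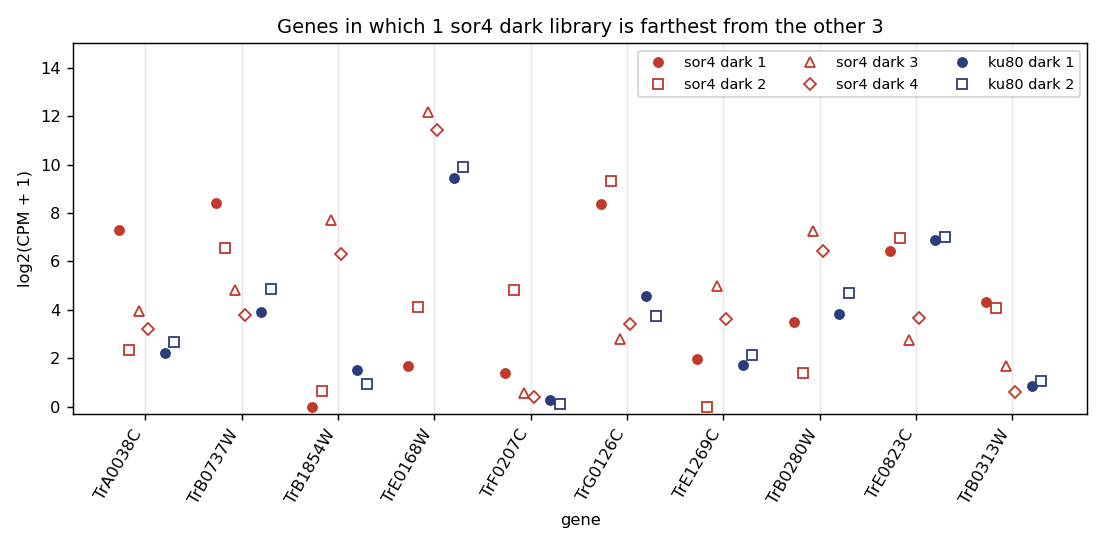
Level as log2(CPM + 1) of 10 genes in which 1 sor4 dark library lay farthest above or below the other 3, with sor4 dark libraries in red at the left of each gene and ku80 dark libraries in blue at the right; each point is 1 library. TrE0168W, TrB1854W, TrE1269C and TrB0280W are high in sor4 replicates 3 and 4, TrG0126C and TrB0313W in replicates 1 and 2.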

How the data were processed

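RNA-seq counts per gene of 12 libraries were used, 6 of them from darkness. The deposited table holds whole-number counts, unnormalised; its name refers to featureCounts, and HISAT2 2.2.1 is named in the submitters' processing notes. The genome build, annotation, strand setting and treatment of shared reads were not stated in the sources used here, so reads of overlapping, antisense or near-identical genes cannot be told apart. Per the labels' protocols, libraries came from a stranded kit after rRNA depletion. Matching the identifiers to a RefSeq table of 9116 genes gave 0 matches, so gene lists by name could not be used, and no sequence was at hand.

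Groups follow the titles. Counts were analysed in R 4.3.3 with edgeR 4.0.16: TMM scaling, its default filter on low counts, which kept 8939 of 10879 rows, and 1 quasi-likelihood fit of 4 group means over all 12 libraries, so light libraries share in the estimate of each gene's spread. P-values were adjusted over all genes tested by the Benjamini-Hochberg method at 0.05. Standard errors are the log2 fold change over the root of the F statistic. Log2 CPM used a prior count of 0.5. The script was tested on simulated data. Members, lists and rules were chosen with earlier results of these data known.

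Genes were named by rule: TrE0662C with 10 rows on either side, called genes, the 6 smallest p among small shifts of at least 20 CPM and the 6 largest changes without overlap at 5 CPM in each direction, and, for each sor4 dark library, the 2 genes farthest above and below the other 3. Other genes in the text were chosen after their values were seen. The alternatives tried comprised size factors by median of ratios, scaling by library size only, no filter, a filter of 5 CPM in 2 libraries, only dark libraries, the replicate number as a block, DESeq2 1.42.0, limma-voom (limma 3.58.1), a robust dispersion, and each dark library left out.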

Additional observations from a re-analysis of the deposited data

Results flagged for a closer look

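For 39 measures, the value of each sor4 dark library was set against the other 3 to find single libraries far off, and 7 were marked. Several of the genes were named for how their sor4 libraries lie, so this number cannot be set against a chance share. TrE0662C reached 3.34 CPM in replicate 4 of sor4 in darkness, against 0.101 to 0.572 CPM in the other 3. TrE0671C was low in replicate 3, at 1056 CPM against 1341 to 1387 CPM. TrC0244C was marked for 86.3 CPM in replicate 2, against 81.5 to 81.9 CPM, and TrA0999C for 458 CPM in replicate 4, against 431 to 435 CPM; both differences are small, and the other 3 values lie very close together. TrA0808W stood at 29.5 CPM in replicate 3, against 4.62 to 8.01 CPM. TrF0207C stood at 26.9 CPM in replicate 2, against 0.342 to 1.61 CPM. TrC0766W stood at 391 CPM in replicate 1, against 53.3 to 87.1 CPM.

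Of 35 named genes, 2 were shifted one way in darkness and the other way in light, with all libraries taking part; over all genes tested, 78 of 8939 (0.873%) were. Most of the named genes were chosen for a lack of overlap in darkness, so the shares are not comparable. For TrE0663W the effect in darkness minus that in light was -3.31 on the log2 scale (adjusted p = 0.0759, edgeR). For TrE0230C it was 0.30 (adjusted p = 0.740, edgeR), with 57.9 to 61.7 CPM in sor4, against 50.6 and 52.4 CPM in ku80 in darkness, and 65.3 to 73.3 CPM in sor4, against 73.6 and 76.8 CPM in ku80 in light.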

How the results depend on the processing

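The number of genes called in darkness, 3 (all lower), was 3 with either other scaling, with no filter, with the stricter filter, in limma-voom and with a robust dispersion. It was 1 with only the 6 dark libraries, 1 with the replicate block, and 78 in DESeq2 (63 lower, 15 higher); leaving out 1 dark library gave 1 to 22 (lower 1 to 22, higher 0 to 4). The difference of strain effects between darkness and light, with 0 calls, gave 1 with no filter, 4 in DESeq2 and 0 to 1 with a library left out. Genes separated without overlap ranged from 926 to 2030 lower and 765 to 1784 higher with a library left out, and by the stricter rule from 154 to 377 lower and 80 to 290 higher; fewer libraries overlap less by construction. With library size alone, 48 were higher by the stricter rule. The median number of genes over 2-fold apart between sor4 dark libraries was 1537.5 with no filter, 405.5 with the stricter filter and 240.5 at 4-fold. The count of 192 low genes in sor4 dark replicate 1 ran from 133 to 194 under 4 alternatives added after seeing the data.

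Whether the replicate numbers pair the libraries could not be settled. Deviations from the group means correlated at -0.16 for replicate 1 and -0.13 for replicate 2. With 2 ku80 dark libraries the deviations of one mirror those of the other, so these values are not independent. Only replicates 1 and 2 hold both strains, but the fit with the replicate block used all 12 libraries. With this block the median of the 6 rows beside TrE0662C was -3.25. TrD0762C (adjusted p = 0.145) and TrG0659W (0.217) lost their calls there. Named genes that changed sign were TrB1854W (-1.89), TrB0280W (-1.67), TrE0168W (-6.60) and TrE0653C (0.17) with the replicate block, and TrE0168W in limma-voom (-2.35). With a dark library left out, TrE0653C ran from -0.30 to 0.13, TrE0657C from -0.074 to 0.11 and TrE0668C from -0.91 to 0.33. The cause was not tested. Genes under 1 CPM had a median standard error of 0.84, so a 2-fold difference there was close to its error.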

Other observations

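Some of the genes low in sor4 dark replicate 1 were adjacent in the table. In TrF0575W, TrF0576W, TrF0577W and TrF0579W, neighbours among the tested rows, replicate 1 had 126, 16.8, 22.8 and 3.44 CPM, replicates 2 to 4 had 357 to 484, 52.6 to 68.6, 55.8 to 88.9 and 9.49 to 13.8 CPM, and ku80 replicates 1 and 2 had 435 and 270, 54.3 and 28.6, 62.8 and 47.9, and 10.1 and 4.85 CPM. TrF0392C had 105 CPM in replicate 1, 346 to 563 CPM in the other sor4 cultures and 318 and 174 CPM in ku80, and TrF0393W beside it had 7.31, 32.8 to 55.2, and 25.1 and 10.2 CPM. TrB0705C had 638 CPM in replicate 1, 2958 to 3501 CPM in the other sor4 cultures and 1866 and 1234 CPM in ku80. The opposite was seen at TrF0378C, TrF0379W and TrF0380W, where replicate 1 had 635, 58.1 and 41.8 CPM against 59.1 to 123, 17.7 to 22.2 and 12.6 to 16.2 CPM in the other sor4 cultures and 47.9 and 92.2, 15.39 and 15.01, and 13.02 and 11.96 CPM in ku80. In sor4 dark replicate 3, TrD1440W was low, at 169 CPM against 502 to 668 CPM in the other sor4 cultures and 742 and 492 CPM in ku80.

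Among tested rows that follow each other in the table, 11 stretches of 3 lay below ku80 in all sor4 dark cultures and 6 stretches of 3 lay above, and none was longer. Over all genes tested, 8.32% lay below and 6.29% above without overlap. Whether rows in random order would give as many stretches was not tested. Those below include TrE0662C to TrE0664C and TrE0669C to TrE0671C, described above. Others were TrB1136C, TrB1137C and TrB1138C, with log2 fold changes of -1.28, -0.93 and -0.21, and TrB0466W, TrB0467W and TrB0468C, with 0.69, 1.60 and 1.19. TrB0468C had 123, 133, 303 and 207 CPM in sor4 dark replicates 1 to 4 and 84.4 and 83.3 CPM in ku80.

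Of the genes with at least 5 CPM in sor4 darkness, 143 were over 4-fold higher in light in ku80. In sor4 dark replicate 3, 105 of them lay above the mean of the other 3 cultures, with a median of 0.23 on the log2 scale. In replicates 1, 2 and 4 the numbers were 59, 71 and 70. Over all 7398 genes the median in replicate 3 was -0.006. Of 573 genes over 4-fold lower in light in ku80, 274 lay above in replicate 3, with a median of -0.04. The ku80 light libraries behind both lists had 1305 genes over 2-fold apart. Median log2 fold changes between the strains in darkness were -0.01 to 0.04 in 5 classes of gene length, lowest in the longest genes and highest in the shortest, and 0.01 to 0.03 for the letters A to G of the identifiers.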
